A study of Mus musculus with 46 samples.

Results

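DNA replication and S phase genes were followed in sorted microglia and macrophages of mouse glioma. The set was 44 of the 23329 gene symbols in the deposited count table, found by symbol, and covers origin licensing, the replication fork and nucleotide supply. RNA had been sequenced from 46 libraries of 23 mice, with tumour-associated microglia (MG, CD49d- within the CD45+CD11b+Ly6C-Ly6G- gate) and bone marrow-derived macrophages (BMDM, CD49d+ within it) taken from the same tumour. Every mouse was an nTVA Ink4a/Arf KO/KO animal that had received DF1 RCAS-PDGFB-HA cells in the right frontal cortex at 5 to 6 weeks of age, so all groups, vehicle included, lack the Ink4a/Arf locus. In nTVA mice the viral receptor is made under the nestin promoter, so the PDGFB virus reaches nestin-expressing cells. The groups were vehicle (4 mice), 5 days of BLZ945 (4), 5 days of IR (2), 5 days of IR+BLZ945 (3), recurrent BLZ945 (2), recurrent IR (4) and recurrent IR+BLZ945 (4). BLZ945 is an inhibitor of CSF1R, the receptor on which macrophages depend, and IR is ionizing radiation. The series describes the 5-day tumours as regressing and the recurrent tumours as progressing.

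Before S phase, ORC, CDC6 and CDT1 load the MCM2-7 helicase onto origins. CDC45, the GINS complex and MCM10 then turn it into a moving fork, where polymerases, the PCNA clamp, its RFC loader and RPA copy the DNA, while FEN1 and LIG1 finish the lagging strand and CAF-1 and UHRF1 with DNMT1 restore chromatin and methylation. Many of these genes are induced at the G1 to S transition by E2F factors, which the retinoblastoma protein restrains and cyclin E with CDK2 releases. Their transcripts are therefore widely read as a sign of cycling cells, and both microglia and tumour macrophages can divide.

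Because all 44 genes had negative fold changes after IR in both populations, their promoters were searched for the E2F motif, written as TTTCCCGC, TTTGGCGC, TTTCGCGC or TTTGCCGC on either strand. The windows were the 250 bases before a gene start in RefSeq's promoter table (build GRCm38.p6), in which 37 of the 44 members were found. For a gene with several starts, the window with most matches was used. A symbol of the table counted if any of its windows matched. A match was present for 10 of the 37 (27.0%), against 583 of 27025 symbols in the table (2.16%). These 10 were Orc1, Cdc6, Mcm5, Mcm6, Mcm7, Pola1, Rfc3, Uhrf1, Dnmt1 and Dtl. Windows that overlap a GENCODE exon were not printed. The 3 windows below come from different roles. The matched letters are in capitals and show how the same motif sits in a licensing gene, a polymerase gene and a methylation gene.
Mcm5, chr8:75109259-75109508, plus strand: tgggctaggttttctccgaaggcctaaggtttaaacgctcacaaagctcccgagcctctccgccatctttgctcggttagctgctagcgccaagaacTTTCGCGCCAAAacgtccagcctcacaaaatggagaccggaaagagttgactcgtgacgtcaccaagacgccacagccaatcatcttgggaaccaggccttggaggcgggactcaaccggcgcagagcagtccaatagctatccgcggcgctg
Pola1, chrX:93632156-93632405, minus strand: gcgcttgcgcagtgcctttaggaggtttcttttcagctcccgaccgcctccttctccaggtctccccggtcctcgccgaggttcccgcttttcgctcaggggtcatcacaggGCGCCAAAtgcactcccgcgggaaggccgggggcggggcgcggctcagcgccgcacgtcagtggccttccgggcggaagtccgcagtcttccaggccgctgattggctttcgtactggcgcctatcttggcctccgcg
Uhrf1, chr17:56304063-56304312, plus strand: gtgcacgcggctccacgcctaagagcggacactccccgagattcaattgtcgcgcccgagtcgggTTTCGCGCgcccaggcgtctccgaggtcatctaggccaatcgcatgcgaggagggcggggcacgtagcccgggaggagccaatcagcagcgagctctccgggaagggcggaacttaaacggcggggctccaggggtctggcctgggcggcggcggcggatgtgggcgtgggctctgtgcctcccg
In Mcm5 the capitals hold TTTCGCGC on the plus strand and TTTGGCGC on the minus strand, which overlap. Mcm5 codes for a subunit of the helicase (GENCODE gene at chr8:75109569-75128439), Pola1 for the catalytic subunit of the polymerase that starts each strand (chrX:93304767-93632155) and Uhrf1 for the reader of half-methylated DNA (chr17:56303321-56323486). The Mcm5 and Pola1 windows lie upstream of the GENCODE gene, and the Uhrf1 window lies inside the GENCODE gene but in none of its exons. A match is a description of letters. In MG after 5 days of IR, 4 of the 10 members with a match and 6 of the 27 without one were lower than in vehicle, with median log2 fold changes of -2.41 and -2.15. After IR+BLZ945 in MG the counts were 5 of 10 and 18 of 27, with medians of -1.74 and -2.24, and in BMDM after IR they were 2 of 10 and 6 of 27, with medians of -1.67 and -1.15. The order of the medians thus differed between these comparisons.

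Total counts ran from 3007379 to 16993474 per library. The lowest were MG of mouse 65971 (5-day IR+BLZ945, 3007379) and MG of mouse 68344 (recurrent IR, 4597962). Both were doubted because fewer than 11000 genes had 10 counts, as were BMDM of mice 122 and 124 (5-day BLZ945), and both libraries of mouse 65698 (5-day IR) because their sex-linked genes did not match each other. BMDM of mouse 65698 also had the fewest genes with 10 counts of any BMDM library (10148), and it is 1 of the 2 libraries behind the BMDM results after IR. Summed markers of microglia were 16874 to 35026 CPM (counts scaled to library size) in vehicle MG and 5103 to 10732 in vehicle BMDM, separate as the labels say. In recurrent BLZ945 these ranges overlapped (7600 to 13410 and 4774 to 7713). Summed markers of blood-derived macrophages overlapped in vehicle, at 1267 to 2545 CPM in MG and 1899 to 6762 in BMDM. BMDM of vehicle mouse 65967 had both the lowest of these BMDM sums (1899) and the highest microglia sum (10732). Levels below are log2 CPM with a prior count of 1, on which -3.53 means no count in that library. Mice are listed as 41, 65966, 65967 and 78 for vehicle, 122, 123, 124 and 65975 for 5-day BLZ945, 65698 and 65972 for 5-day IR, and 65696, 65971 and 67537 for 5-day IR+BLZ945.

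The mean level of the 44 genes was lowest in the 5-day groups given IR, in MG with or without BLZ945 and in BMDM with IR alone, and stood at or above vehicle in recurrence. In MG it was 4.60 ± 0.65 (SD, n = 4) in vehicle, 4.08 ± 0.72 (n = 4) after 5 days of BLZ945, 1.99 ± 0.01 (n = 2) after IR and 1.64 ± 0.71 (n = 3) after IR+BLZ945. In BMDM the same means were 4.61 ± 0.29, 4.02 ± 0.86, 2.05 ± 0.06 and 3.45 ± 0.20. Recurrent groups had means of 4.79 to 4.99 in MG and 5.11 to 5.36 in BMDM. No library of 5-day IR or 5-day IR+BLZ945 overlapped vehicle in this mean, in either population. Fewer dividing cells and less of these transcripts per cell cannot be told apart in bulk RNA.

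**Figure D1:**
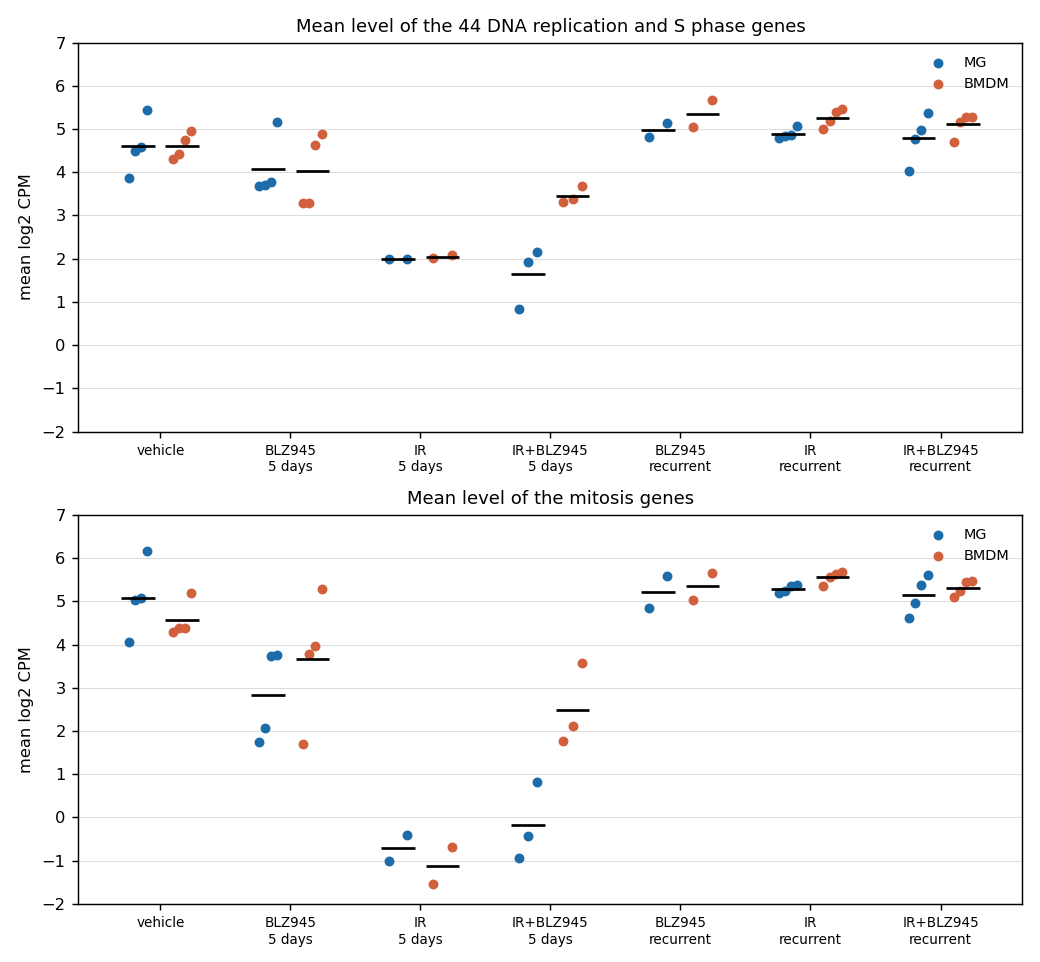
Mean log2 CPM of the 44 replication genes (top) and of 22 mitosis genes (bottom) in each library, with a point per mouse, MG in blue, BMDM in orange and a black bar at the group mean. The 5-day IR libraries of both populations and the MG libraries of 5-day IR+BLZ945 lie at 0.83 to 2.15 in the top panel, while BMDM of 5-day IR+BLZ945 lie at 3.30 to 3.68.

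By member, the lowest group mean in MG was that of 5-day IR for 17 genes and of 5-day IR+BLZ945 for 27. In BMDM it was that of 5-day IR for 32, of 5-day IR+BLZ945 for 7 and of 5-day BLZ945 for 5. The highest mean in MG belonged to a recurrent group for 43 genes and to vehicle for Mcm3. In BMDM it belonged to a recurrent group for 43 and to 5-day BLZ945 for Pold1. All 44 passed the filter on low counts in every fit.

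After 5 days of IR, 11 of the 44 genes fell in MG and none rose (edgeR's quasi-likelihood test, adjusted p under 0.05), where 1.99% of all 14534 genes tested passed in either direction. They were Orc6, Mcm5 and Mcm6 in licensing, Uhrf1 in methylation, Rrm2, Tk1 and Tyms in nucleotide supply, and E2f8, Ccne1, Ccne2 and Dtl in entry and checkpoint control. All 44 log2 fold changes were negative, with a median of -2.25 against 0.01 over all genes tested. For 41 of the 44, both IR libraries lay below all 4 vehicle libraries, and the share of all genes that separate in this way was not counted. None of the 4 polymerase and primase genes, the 7 clamp, loader and RPA genes, the 4 helicase activation genes or the 4 lagging strand and repair genes passed, with medians of -1.98, -0.96, -2.77 and -2.73. At an unadjusted p under 0.05 the count was 38 (1970 of all 14534 genes), and DESeq2 called 30 (830 over all genes). The number of calls thus rests on the test and on 2 IR mice. That number was 27 without vehicle mouse 65967. Leaving out either IR mouse lost most or all of the 11 calls, and leaving out all doubted libraries kept only some of them. In each of these fits the IR group is 1 library.

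By role, the median log2 fold change was -4.56 for entry and checkpoint control, -3.38 for chromatin assembly and methylation, -2.35 for nucleotide supply and -1.91 for licensing. Here and below, a value after ± beside a log2 fold change is its SE. Rrm2, the small subunit of ribonucleotide reductase that limits dNTP synthesis, had levels of 6.05, 7.19, 4.81 and 5.83 in vehicle MG and -0.997 and -1.58 after IR. Its log2 fold change was -7.75 ± 1.16 (SE; adjusted p = 0.00113). Tk1, the thymidine kinase of the salvage route, had levels of 4.40, 5.13, 2.79 and 4.63 in vehicle and -1.99 and -0.78 after IR, a change of -6.00 ± 0.94 (SE; adjusted p = 0.00151). Tyms, which makes thymidylate, went from 5.10, 6.09, 3.71 and 5.19 to 3.05 and 2.70 (-2.35 ± 0.54, adjusted p = 0.0235). For each of the 3 the highest IR library was below the lowest vehicle library. Dut, which clears dUTP, and Rrm1, the large reductase subunit, had values of -2.15 ± 0.65 (adjusted p = 0.0951) and -1.59 ± 0.51 (adjusted p = 0.116).

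Entry genes formed the other large block. Ccne1, cyclin E1, had levels of 4.02, 5.31, 3.13 and 4.44 in vehicle MG and 1.36 and -1.58 after IR, with a log2 fold change of -3.92 ± 0.89 (SE; adjusted p = 0.021). Ccne2, cyclin E2, had levels of 2.59, 4.26, 1.85 and 3.27 in vehicle, then -0.78 and -2.57 (-4.95 ± 0.96, adjusted p = 0.00764). Mouse 65698 was the higher of the IR mice in both, and neither cyclin overlapped vehicle. Dtl, the substrate receptor that marks CDT1 and p21 for destruction in S phase, fell by 5.60 on the log2 scale (adjusted p = 0.0138). E2f8, an E2F repressor that is itself an E2F target, had 1 count over both IR libraries and 390 over the vehicle libraries, too few for a fold. E2f1, an activator of the family, was 5.05, 5.73, 4.41 and 5.02 in vehicle and 3.89 and 1.65 after IR, with -1.91 ± 0.88 (SE; adjusted p = 0.338).

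Of the licensing genes, Mcm5 had levels of 6.20, 6.91, 5.49 and 6.73 in vehicle MG and 3.05 and 3.40 after IR, a log2 fold change of -3.19 ± 0.68 (SE; adjusted p = 0.0158). The MCM2-7 helicase is a hexamer, and its other subunits had smaller log2 fold changes, from -0.87 ± 0.34 for Mcm3 (adjusted p = 0.239) to -2.42 ± 0.74 for Mcm2 (adjusted p = 0.0989). Mcm6 passed (-2.15 ± 0.55, adjusted p = 0.0414), as did Orc6, a subunit of the origin recognition complex (-1.67 ± 0.41, adjusted p = 0.0336). Mcm2 was 5.75, 6.48, 5.24 and 5.73 in vehicle and 3.69 and 3.09 after IR. Cdc6, the ATPase that loads the helicase, was 2.77, 4.04, 1.85 and 3.53 in vehicle and -2.56 and -1.27 after IR, where it rests on 1 and 4 counts. Neither overlapped vehicle, yet neither passed (Cdc6 adjusted p = 0.0677).

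At the fork and behind it, Cdc45 was 3.79, 4.97, 3.03 and 4.06 in vehicle MG and 0.93 and 1.40 after IR (-2.98 ± 0.83, adjusted p = 0.0628). Pola1 was 3.82, 5.44, 3.03 and 3.64 in vehicle, then 1.83 and 2.51, and Fen1, the flap nuclease, was 5.46, 6.14, 5.08 and 5.59 in vehicle, then 4.26 and 4.25. Pcna, the sliding clamp, was 6.94, 7.44, 6.30 and 7.02 in vehicle, then 6.14 and 5.83 (-0.96 ± 0.38, adjusted p = 0.246). In all 4 of these genes the groups were separate and the test was not passed. Uhrf1 passed, with levels of 5.05, 6.18, 4.28 and 5.41 in vehicle and 2.08 and 1.31 after IR and a change of -3.64 ± 0.76 (SE; adjusted p = 0.0144). Chaf1a, the large CAF-1 subunit, was 3.98, 5.14, 3.41 and 4.11 in vehicle, then 1.45 and -1.27. Chaf1a, Chaf1b, Mcm10 and Gins2 had the smallest p among genes that did not pass, with adjusted p of 0.0515, 0.0515, 0.0603 and 0.0627 and log2 fold changes of -3.66 ± 0.97, -3.12 ± 0.83, -5.02 ± 1.37 and -2.56 ± 0.71.

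**Figure D2:**
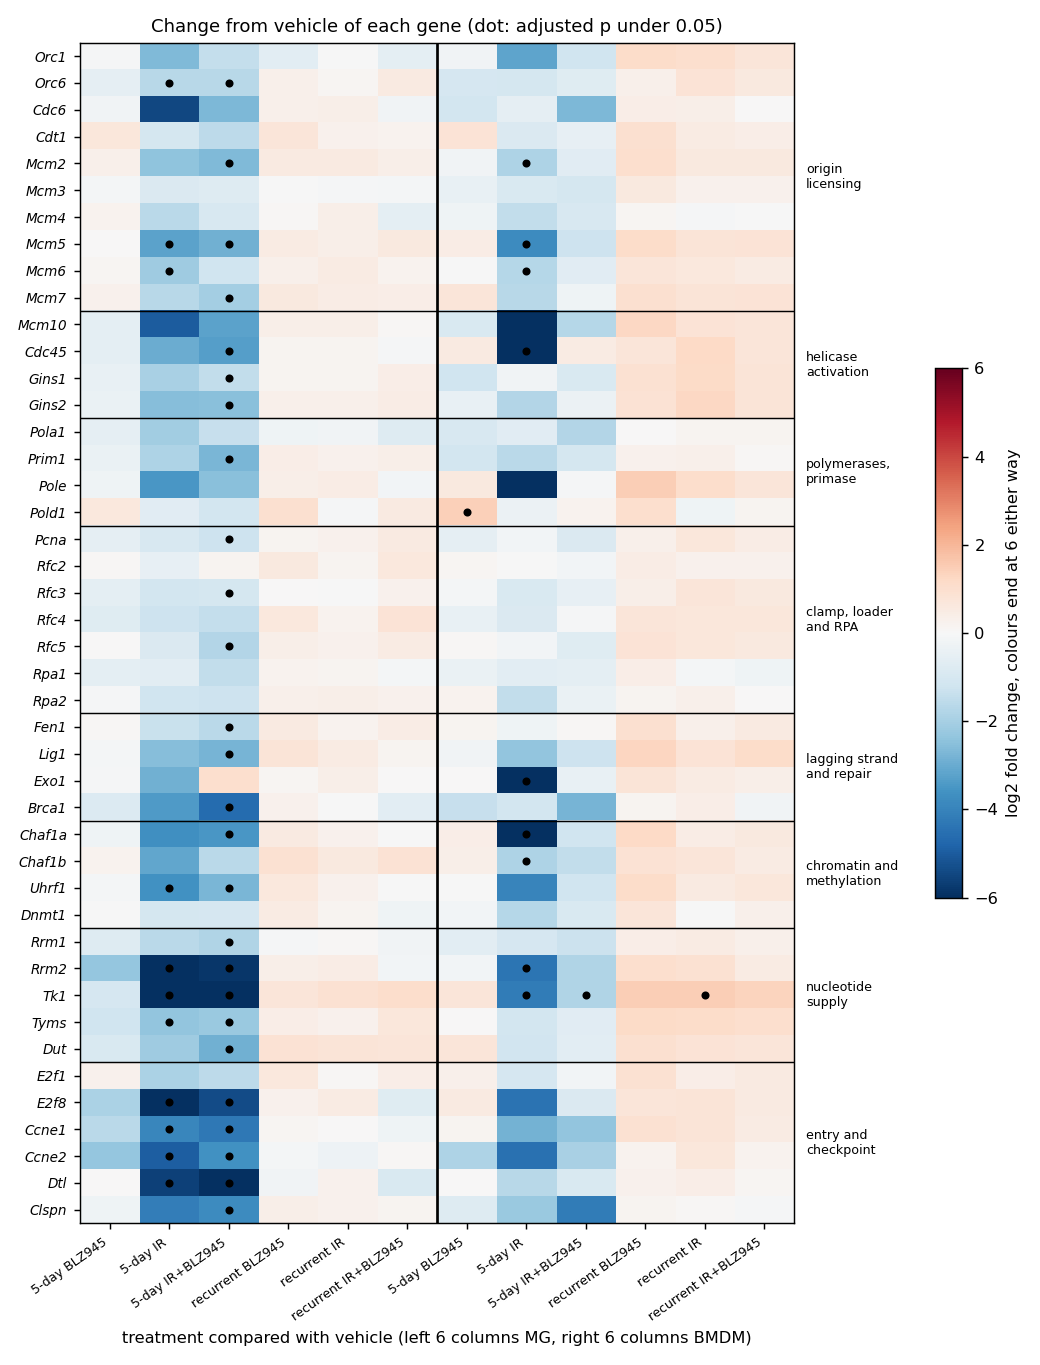
Log2 fold change from vehicle of each of the 44 genes, in rows by role, in the 6 treatment groups of MG (left) and of BMDM (right), with blue for lower, red for higher and a dot where the adjusted p was under 0.05. The dots gather in 2 MG columns, 5-day IR (11) and 5-day IR+BLZ945 (26), and in 5-day IR of BMDM (9).

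After 5 days of IR+BLZ945, 26 of the 44 genes fell in MG and none rose, beside 13.4% of all genes tested. All 5 nucleotide supply genes fell, as did 5 of the 6 entry and checkpoint genes, 4 of the 10 licensing genes and 3 of the 4 helicase activation genes. Also lower were 3 of the 4 lagging strand and repair genes, 3 of the 7 clamp, loader and RPA genes, 2 of the 4 chromatin genes and 1 of the 4 polymerase and primase genes (Prim1). The median log2 fold change was -1.93 against -0.02 over all genes, and 42 of the 44 values were negative. The exceptions were Exo1 and Rfc2. Exo1, a 5′ to 3′ nuclease, had 110 counts in mouse 65971 and 5 and 8 in the other mice (-0.65, 5.08 and -0.37), and Rfc2 differed by 0.14 ± 0.26. Leaving out each library in turn gave counts of 18 to 29. Without the doubted libraries 28 fell, 22 of them among the 26.

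Nucleotide supply and entry genes again had the largest changes. Tk1 was -3.53, -3.53 and -0.95 (vehicle 4.40, 5.13, 2.79 and 4.63), without a count in 2 of the 3 mice, and its log2 fold change was -6.64 ± 0.87 (SE; adjusted p = 0.000198). Rrm2 was -0.42, 1.91 and -0.95, a change of -5.83 ± 0.88 (SE; adjusted p = 0.000596). Dtl, E2f8 and Clspn, the last an adaptor of the replication checkpoint kinase, changed by -6.20 ± 1.07, -5.38 ± 0.86 and -3.76 ± 1.06, with adjusted p of 0.00167, 0.000925 and 0.0265. Each of them had no count in 2 of the 3 mice, and E2f8 had 4 counts over the group, so the size of these changes is uncertain. Clspn passed in 3 of 7 fits that left out a library, and Dtl and E2f8 in all 7. Ccne1 was -0.05, 1.34 and -1.22 (-4.28 ± 0.80, adjusted p = 0.00327), Ccne2 was -1.26, 0.01 and 0.05 (-3.64 ± 0.76, adjusted p = 0.00693), and Tyms was 3.29, 1.91 and 3.13 (-2.24 ± 0.46, adjusted p = 0.00675). None of these libraries reached the lowest vehicle level. Brca1, a homologous recombination factor, fell by 4.62 (adjusted p = 0.00778).

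Members of the fork passed here that had not passed after IR alone, and whether the 2 treatments differ is tested further on. Mcm2 was 3.80, -1.35 and 3.40 (-2.67 ± 0.64, adjusted p = 0.0139). Cdc45 was 1.39, -3.53 and 0.98 (-3.31 ± 0.73, adjusted p = 0.00906), and Mcm2 and Cdc45 were both lowest in mouse 65971, the library of 3007379 counts, where 12 of the 44 genes had no count. Pcna was 6.04, 4.41 and 5.95 (-1.25 ± 0.34, adjusted p = 0.0219) and Fen1 was 3.41, 3.91 and 4.21 (-1.64 ± 0.41, adjusted p = 0.0168). Chaf1a at 1.81, -3.53 and 0.16 and Uhrf1 at 2.69, 2.48 and 2.55 fell as well, by 3.48 and 2.73 (adjusted p = 0.0133 and 0.0107). Cdc6 at -3.53, 2.40 and -3.53, Pola1 at 2.64, 2.89 and 2.89 and E2f1 at 4.40, -3.53 and 3.53 did not pass. Cdc6 was detected in mouse 65971 alone, while E2f1 had no count there. The smallest p among genes that did not pass were those of Mcm10, Rpa1, Rfc4 and Pola1, with log2 fold changes of -3.22 ± 1.08, -1.50 ± 0.51, -1.41 ± 0.49 and -1.40 ± 0.50 and adjusted p of 0.0513, 0.053, 0.0583 and 0.0619.

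BLZ945 alone for 5 days gave no call in MG by edgeR (0.303% of all genes), with 6 of the 44 at an unadjusted p under 0.05 and 3 called by DESeq2. Among all 14534 genes tested, 1947 had an unadjusted p under 0.05, a share near that of the members, and DESeq2 called 556 genes. The median log2 fold change was -0.26. Ccne2, Rrm2, E2f8 and Tyms had the smallest p, with log2 fold changes of -2.32 ± 0.60, -2.34 ± 0.61, -1.90 ± 0.57 and -1.18 ± 0.40 and adjusted p of 0.0802, 0.0833, 0.128 and 0.183. Rrm2 was 1.75, 2.22, 4.60 and 4.63 and Ccne2 was 0.03, 0.63, 1.83 and 0.64, all below the lowest vehicle library. Mouse 124 stood above the other BLZ945 mice in Mcm2 (5.58, 5.52, 7.18 and 5.42) and in Ccne1 (2.20, 2.25, 3.79 and 2.17). Without vehicle mouse 65967 the count was 3, without BLZ945 mouse 65975 it was 1, and without the doubted libraries, all of which belong to other groups of the same fit, it was 3.

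In BMDM, 9 of the 44 genes fell after 5 days of IR and none rose, beside 1.07% of 14568 genes tested. They were Mcm2, Mcm5 and Mcm6, Cdc45, Exo1, Chaf1a and Chaf1b, and Rrm2 and Tk1. All 44 log2 fold changes were negative, with a median of -1.63 against -0.16 over all genes. Setting the genes without a count to their bound left them below this median, so it could not move. Leaving out vehicle mouse 65967 gave 14 calls. An unadjusted p under 0.05 was found for 29 members (2464 of all 14568 genes), and DESeq2 called 21 (1120 over all genes). The number of calls rose without IR mouse 65972 and fell without IR mouse 65698, whose library is doubted. Each of these fits leaves 1 IR library, as does the fit without the doubted libraries, which kept only some of the 9 calls.

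Several genes had no reads at all in BMDM after IR. Cdc45 was 3.50, 4.06, 1.20 and 4.00 in vehicle and had no count in either IR library, at least 85.8-fold lower when 3 counts over the group are taken as the floor. Exo1, Mcm10 and Pole, the catalytic subunit of the leading strand polymerase, were likewise without a count, at least 42.6-fold, 65.7-fold and 69.3-fold lower, and of these only Exo1 passed (Mcm10 and Pole adjusted p = 0.0546 and 0.0537). Chaf1a was 4.04, 4.69, 3.37 and 4.53 in vehicle and had 1 count over both IR libraries. In MG of the same mice Cdc45 was 0.93 and 1.40 and Exo1 was 0.11 and -0.59. The IR libraries of BMDM held 9 (mouse 65698) and 7 (mouse 65972) members without a count, against 3 and 0 in MG.

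Tk1 in BMDM was 3.85, 3.82, 4.56 and 4.54 in vehicle and -0.23 and 0.33 after IR, a log2 fold change of -4.21 ± 0.51 (SE; adjusted p = 7.93e-05). Mcm5 was 6.05, 6.48, 5.92 and 6.71 in vehicle, then 3.07 and 1.77 (-3.75 ± 0.45, adjusted p = 7.93e-05). Rrm2 was 5.20, 5.71, 6.05 and 6.07 in vehicle, then 2.34 and -1.57 (-4.40 ± 0.74, adjusted p = 0.00227), so the IR mice lay far apart but both below vehicle. Mcm2 was 5.62, 6.40, 5.93 and 6.32 in vehicle, then 4.21 and 4.18 (-1.87 ± 0.40, adjusted p = 0.0252). Mcm6 and Chaf1b, the middle CAF-1 subunit, changed by -1.70 ± 0.36 and -1.84 ± 0.44 (adjusted p = 0.0217 and 0.0437). Uhrf1 and Lig1, the ligase of the lagging strand, missed the threshold at -3.97 ± 0.99 and -2.34 ± 0.58 (adjusted p = 0.0534 for each). Uhrf1 was 4.89, 5.42, 4.21 and 5.52 in vehicle and -3.53 and 2.06 after IR.

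Other members in BMDM did not pass after IR. Pcna was 6.67, 6.62, 6.77 and 6.86 in vehicle and 6.79 and 6.24 after IR, groups that overlapped. Fen1 (4.96, 5.93, 6.31 and 5.59, then 5.94 and 4.90) and Cdc6 (3.00, 3.24, 3.63 and 4.03, then 2.04 and 3.50) overlapped as well. Pola1 was 4.52, 4.57, 3.42 and 5.11 in vehicle, then 3.27 and 4.16, and Tyms was 4.27, 4.79, 4.70 and 5.21 in vehicle, then 4.24 and 2.66. E2f1 was 4.65, 5.45, 5.02 and 5.10 in vehicle, then 3.02 and 4.60. Both cyclins E lay below every vehicle library without passing. Ccne1 was 3.32, 3.74, 4.21 and 4.15 in vehicle and 2.00 and -1.98 after IR (-2.85 ± 0.90, adjusted p = 0.118). Ccne2 was 1.40, 2.04, 3.12 and 2.60 in vehicle and -1.42 and -1.98 after IR (-4.46 ± 1.26, adjusted p = 0.0859).

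**Figure D3:**
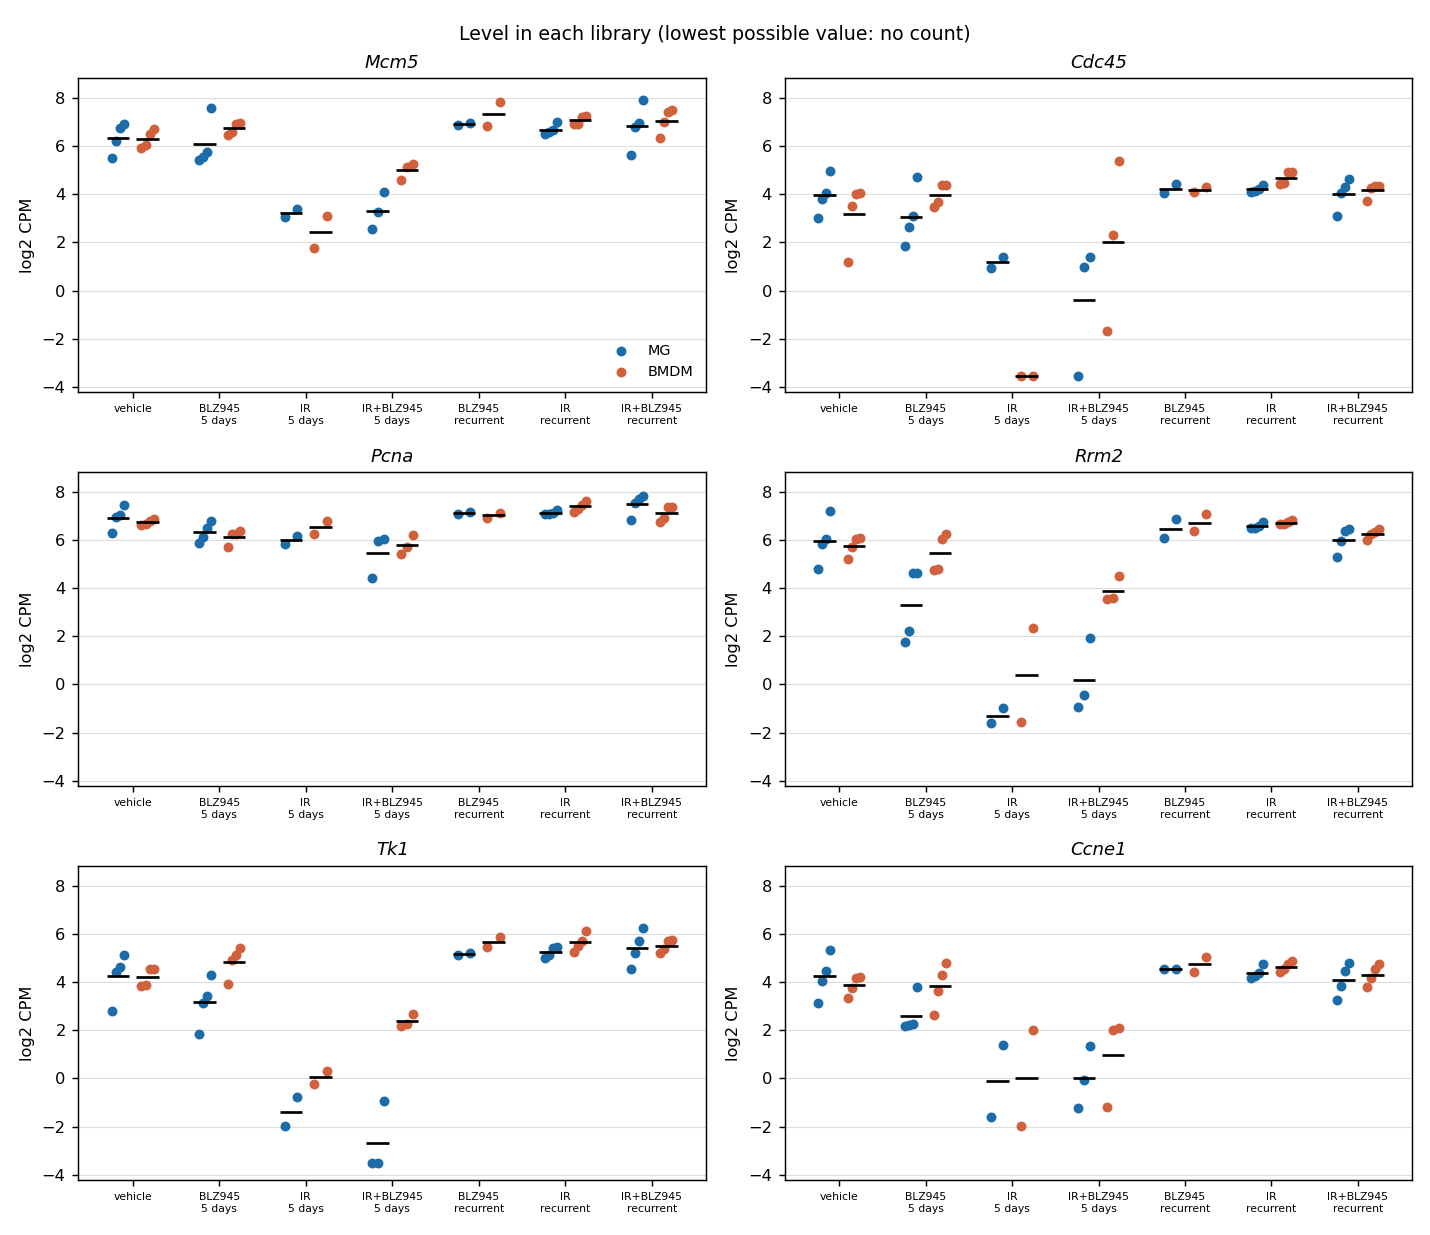
Log2 CPM of Mcm5, Cdc45, Pcna, Rrm2, Tk1 and Ccne1 in each of the 46 libraries, with a point per mouse, MG in blue, BMDM in orange and a black bar at the group mean, all panels on 1 axis. Tk1 lies at -3.53 to -0.78 in MG after IR and IR+BLZ945 and at 2.17 to 2.68 in BMDM after IR+BLZ945, while Pcna spans 4.41 to 7.84 over all libraries.

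After 5 days of IR+BLZ945 Tk1 alone fell in BMDM, beside 0.57% of all genes tested. Its levels were 2.68, 2.17 and 2.25, and its log2 fold change was -1.83 ± 0.37 (SE; adjusted p = 0.0235). The median over the 44 was -0.89 against 0.05 over all genes, and 19 had an unadjusted p under 0.05 (2217 of all 14568 genes). Chaf1b, Mcm5, Pcna and Rrm1 came next, with log2 fold changes of -1.45 ± 0.37, -1.26 ± 0.33, -0.88 ± 0.24 and -1.29 ± 0.36 and adjusted p of 0.0758, 0.0845, 0.0986 and 0.104. Rrm2 was 3.56, 4.52 and 3.59, all below vehicle (-1.80 ± 0.53, adjusted p = 0.124). DESeq2 called 9 (610 over all genes), and 13 fell without the doubted libraries. The call of Tk1 was lost without any 1 of the 3 treated mice (65696, 65971 or 67537) or without vehicle mouse 78.

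After BLZ945 alone a single member rose in BMDM, Pold1, the catalytic subunit of the lagging strand polymerase (5.51% of all genes passed). Pold1 was 4.99, 5.69, 5.43 and 5.42 in vehicle and 6.07, 6.85, 7.33 and 6.68 after BLZ945, with a log2 fold change of 1.42 ± 0.39 (SE; adjusted p = 0.0344). The call was lost without BLZ945 mouse 124 or without any of the 4 vehicle mice. Prim1, Pcna, Cdt1 and Ccne2 followed, with log2 fold changes of -1.12 ± 0.43, -0.56 ± 0.22, 0.82 ± 0.34 and -1.85 ± 0.81 and adjusted p of 0.124, 0.134, 0.146 and 0.173. Cdc6 had no count in mouse 122 (-3.53, 3.20, 2.11 and 2.90), and Pola1 had none in mouse 124 (4.18, 3.44, -3.53 and 4.12). Those 2 doubted libraries held 6 and 7 members without a count.

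Against vehicle, no member passed in MG of recurrent BLZ945 (3.53% of all genes), recurrent IR (4.33%) or recurrent IR+BLZ945 (4.82%) by edgeR, with 0, 0 and 2 at an unadjusted p under 0.05 and 0, 0 and 1 called by DESeq2. Over all 14534 genes the unadjusted counts were 2120, 1805 and 3222, and DESeq2 called 910, 956 and 1698. Median log2 fold changes were 0.34, 0.26 and 0.18. Rrm2 spanned 5.29 to 6.87 over the recurrent MG libraries and 4.81 to 7.19 over vehicle. Tk1 spanned 4.52 to 6.24 and 2.79 to 5.13. The smallest p were those of Rfc2, Pold1, Dut and Chaf1b in recurrent BLZ945 (0.59 ± 0.29, 0.97 ± 0.58, 0.86 ± 0.56 and 0.92 ± 0.66). In recurrent IR they were those of Tk1, Dut, Mcm6 and Chaf1b (0.90 ± 0.51, 0.79 ± 0.47, 0.48 ± 0.40 and 0.59 ± 0.56), and in recurrent IR+BLZ945 those of Rfc2, Tk1, Rfc4 and Pola1 (0.63 ± 0.24, 1.07 ± 0.51, 0.83 ± 0.43 and -0.78 ± 0.44).

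In recurrent BMDM the medians were higher than in MG, at 0.81, 0.64 and 0.52, and 1 gene passed. Tk1 rose in recurrent IR, from 3.85, 3.82, 4.56 and 4.54 to 5.68, 5.26, 6.12 and 5.50, a log2 fold change of 1.47 ± 0.32 (SE; adjusted p = 0.0238), beside 1.87% of all genes. Gins2, Pcna and Tyms came next there (1.24 ± 0.39, 0.68 ± 0.22 and 1.09 ± 0.36, adjusted p = 0.101, 0.111 and 0.12), with Mcm5 at 0.77 ± 0.30. In recurrent BLZ945 (0% of all genes passed) and recurrent IR+BLZ945 (0.0275%) no member passed by edgeR, with 12 and 4 at an unadjusted p under 0.05 and 1 called by DESeq2 in each. Over all 14568 genes the unadjusted counts were 1183 and 1504, and DESeq2 called 114 and 229. Tk1 had the smallest p in both, at 1.48 ± 0.37 (SE; adjusted p = 0.226) and 1.33 ± 0.32 (SE; adjusted p = 0.13). It was followed by Mcm5, Mcm2 and Tyms in the former (1.12 ± 0.35, 1.02 ± 0.35 and 1.14 ± 0.42) and by Tyms, Mcm5 and Lig1 in the latter (1.03 ± 0.36, 0.84 ± 0.30 and 1.08 ± 0.42). The call of Tk1 in recurrent IR was lost without recurrent mouse 68343, 68345 or 68346 or vehicle mouse 41 or 65966, and when Malat1 minus Lars2, used here as a measure of RNA quality, entered the model.

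Within each population, recurrence against 5 days of the same treatment gave most calls for IR and for IR+BLZ945, and all calls were higher. In MG, 31 genes rose for IR (11.6% of all genes passed), 34 for IR+BLZ945 (28.1%) and 4 for BLZ945 (8.24%), with medians of 2.64, 2.37 and 0.63. In BMDM, 28 rose for IR (12.5%), 12 for IR+BLZ945 (3.69%) and 2 for BLZ945 (6.82%), with medians of 2.01, 1.32 and 0.84. Every one of the 44 genes was higher in all 4 recurrent than in both 5-day libraries for IR in MG. How many of all genes separate in this way was not counted. For BLZ945 the share of the 44 genes that passed was near that of all genes in MG and below it in BMDM. The genes were Rrm2, Tyms, E2f8 and Ccne2 in MG (2.70 ± 0.69, 1.57 ± 0.46, 2.14 ± 0.65 and 2.23 ± 0.68) and Mcm2 and Pcna in BMDM (1.23 ± 0.35 and 0.88 ± 0.26). These comparisons share their 5-day libraries with those against vehicle. Without the doubted libraries the count for IR+BLZ945 in MG was 34, while the IR comparisons rest on a single 5-day library in each population. Leaving out either 5-day IR mouse also leaves a single library there, and the count for IR then fell in both populations. For IR+BLZ945 in BMDM, the count was 5 without mouse 65696, 4 without 67537, 5 without 67169, 7 without 67543 and 28 without the doubted libraries. For BLZ945 in MG it was 0 without mouse 122 or 70696, 1 without 123 or 67668 and 2 without 65975. For BLZ945 in BMDM it was 0 without mouse 122, 123, 124 or 70696, 1 without 67668 and 5 without 65975.

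Among the members that rose, Tk1 had the largest change for IR+BLZ945 in MG (7.71 ± 0.89, adjusted p = 3.03e-05), from -3.53, -3.53 and -0.95 to 5.71, 6.24, 4.52 and 5.22. Rrm2 went from -0.997 and -1.58 to 6.59, 6.74, 6.48 and 6.50 for IR (8.19 ± 1.17, adjusted p = 0.000673). Pcna went from 6.04, 4.41 and 5.95 to 7.55, 7.68, 6.82 and 7.84 for IR+BLZ945 (1.76 ± 0.34, adjusted p = 0.00201). In BMDM, Mcm5 went from 3.07 and 1.77 to 7.18, 6.89, 7.24 and 6.92 for IR (4.52 ± 0.47, adjusted p = 7.93e-06). Cdc45, without a count after 5 days of IR, reached 4.92, 4.44, 4.90 and 4.45, at least 193-fold higher. Summed glioma and oligodendrocyte precursor markers, sought as a sign of tumour RNA, were 101 to 887 CPM in recurrent MG and 52.3 to 349 in recurrent BMDM, against 6.65 to 91.5 in MG and 0 to 20.5 in BMDM at 5 days. These ranges do not overlap. Summed dendritic cell markers were 54.1 to 365 CPM in recurrent BMDM against 1947 to 3568 in BMDM at 5 days, with 4 of 6 lower for each treatment. The part of tumour RNA or of dendritic cells in the rise was not tested.

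With IR added to BLZ945 for 5 days, 20 of the 44 genes were lower in MG than with BLZ945 alone (9.84% of all genes passed) and 3 in BMDM (3.58%), with none higher. In MG they included Mcm2, Mcm5 and Mcm7, Cdc45, Prim1, Fen1, Lig1, Chaf1a, Uhrf1, Rrm2, Tk1, Dut, Ccne1 and Dtl, of which Dtl changed most (-6.21 ± 1.07, adjusted p = 0.00318). Dtl had no count in combination mice 65971 and 67537, so the size of its change is uncertain. In BMDM they were Mcm5, Chaf1b and Tk1 (-1.70 ± 0.34, -1.83 ± 0.38 and -2.53 ± 0.38). The MG count was 5 without BLZ945 mouse 124 and 19 without the doubted libraries, of which 14 were among the 20. The BMDM count was 5 without BLZ945 mouse 65975 and 11 without the doubted libraries. Against IR alone, the combination gave no call in MG by edgeR (0.227% of all genes), with 1 gene at an unadjusted p under 0.05, 1 by DESeq2 and 1 without mouse 67537, and the median difference was 0.04. Over all 14534 genes the unadjusted count was 2957, and DESeq2 called 1235.

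In BMDM the combination was higher than IR alone for 7 genes (2.36% of all genes): Mcm5, Cdc45, Pole, Exo1, Chaf1a, Rrm2 and Tk1. Tk1 was -0.23 and 0.33 after IR and 2.68, 2.17 and 2.25 after IR+BLZ945 (2.39 ± 0.48, adjusted p = 0.0125). Mcm5 was 3.07 and 1.77 after IR, then 4.59, 5.26 and 5.14 with the combination (2.49 ± 0.43, adjusted p = 0.00395), and Rrm2 differed by 2.61 ± 0.69 (SE; adjusted p = 0.0483). Cdc45, Pole and Exo1, all without a count after IR alone, were at least 115-fold, 63.3-fold and 30.6-fold higher. Cdc45 varied widely among the combination mice (-1.66, 5.36 and 2.32). The fits without mouse 65698 and without the doubted libraries lost some of the 7 calls, and each leaves a single IR library.

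Between the populations, no member differed in vehicle by edgeR or DESeq2 (9.14% of 15901 genes passed by edgeR), and 1 had an unadjusted p under 0.05 (3282 over all genes). The smallest p were those of Mcm4, Dnmt1, Rfc2 and Mcm6 (MG minus BMDM -0.84 ± 0.35, -0.70 ± 0.43, -0.40 ± 0.25 and -0.45 ± 0.34, adjusted p = 0.144, 0.38, 0.389 and 0.504). A single gene passed when MG of vehicle mouse 65966 was left out. After 5 days of BLZ945, 5 were lower in MG (21.8%), namely Pold1, Rrm2, Tk1, Dut and E2f8, the last lost with the mouse as a block (-2.51, adjusted p = 0.141). That count was 2 without MG of mouse 122 and 3 without MG of mouse 123. After IR, Cdc45, Exo1 and Chaf1a were higher and Cdc6 lower in MG (9.09%), a count that was 1 without MG of mouse 65698 or 65972 or BMDM of 65698. The share of members that passed was below that of all genes after BLZ945 and near it after IR. Without the doubted libraries the count after BLZ945 was 6. After IR that fit leaves 1 library per population, both of mouse 65972, so its calls are not compared here. Exo1 and Cdc6 passed in 0 of 4 fits that left out a library, and Cdc45 and Chaf1a in 1 each. Cdc45 was at least 16.4-fold and Exo1 at least 5.88-fold higher, since BMDM had no count of either. In recurrence 0 passed for BLZ945 (0.0818%), 0 for IR (1.91%) and 1 for IR+BLZ945 (4.41%) by edgeR. That gene was Mcm4 (-1.32 ± 0.36, adjusted p = 0.0201), lost without mouse 68362 in either population or MG of 67947. In the recurrent BLZ945 and IR comparisons 0 and 1 had an unadjusted p under 0.05 (660 and 1215 over all genes), and DESeq2 called no member.

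After 5 days of IR+BLZ945, 15 genes were lower in MG than in BMDM and none higher (12.8% of all genes passed). Tk1 was -3.53, -3.53 and -0.95 in MG and 2.68, 2.17 and 2.25 in BMDM of the same mice (-4.64 ± 0.73, adjusted p = 3.27e-05). Rrm2 was -0.42, 1.91 and -0.95 in MG and 3.56, 4.52 and 3.59 in BMDM (-3.63 ± 0.78, adjusted p = 0.00142). Fen1 was 3.41, 3.91 and 4.21 in MG and 5.65, 6.39 and 5.10 in BMDM (-1.93 ± 0.42, adjusted p = 0.00186), and Dut differed by -2.70 ± 0.55 (SE; adjusted p = 0.000856). The other 11 were Mcm2, Mcm5, Mcm7, Cdc45, Gins2, Prim1, Pold1, Lig1, Chaf1a, E2f8 and Dtl. With the mouse as a block, which pairs the populations, 11 genes passed, and Mcm7, Cdc45, Gins2 and Prim1 did not (-1.57, -1.51, -1.96 and -2.03, adjusted p = 0.088, 0.474, 0.0663 and 0.108). The count was 9 without MG of mouse 65971, 9 without its BMDM and 14 without the doubted libraries, of which 8 were among the 15.

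Whether the change from vehicle differed between the populations was tested with an interaction term. For 5-day IR+BLZ945 it passed for 2 of the 44 genes, Tk1 and Rrm2 (0.358% of 15901 genes passed). The MG change minus the BMDM change was -4.86 ± 0.86 (SE; adjusted p = 0.00597) for Tk1 and -4.05 ± 0.94 (SE; adjusted p = 0.0426) for Rrm2. With the mouse as a block both passed (adjusted p = 0.0185 and 0.0288). Tk1 passed in all 14 fits that left out a library, and Rrm2 in 4 of them. The call of Rrm2 was lost without MG of mouse 65696, 67537, 41, 65966 or 78, or BMDM of mouse 65696, 65971, 41, 65966 or 65967. Without the doubted libraries 4 passed, and with RLE scaling or without the low-count filter 1 did. No member passed for 5-day BLZ945 (1.65%), 5-day IR (0.0755%), recurrent BLZ945 (0%), recurrent IR (0.0189%) or recurrent IR+BLZ945 (0%) by edgeR. For these the counts at an unadjusted p under 0.05 were 6, 7, 0, 0 and 0. DESeq2 called 2, 1, 0, 0 and 0 members. Among all 15901 genes the unadjusted count for 5-day BLZ945 was 2422, a share near that of the members. For 5-day IR the unadjusted share of members was above that of all genes, a difference that was not tested. All genes called by DESeq2 numbered 694 for 5-day BLZ945 and 291 for 5-day IR, shares near those of the members. Without BMDM of mouse 65972 some members passed for 5-day IR, in a fit that leaves a single BMDM library in that group.

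**Figure D4:**
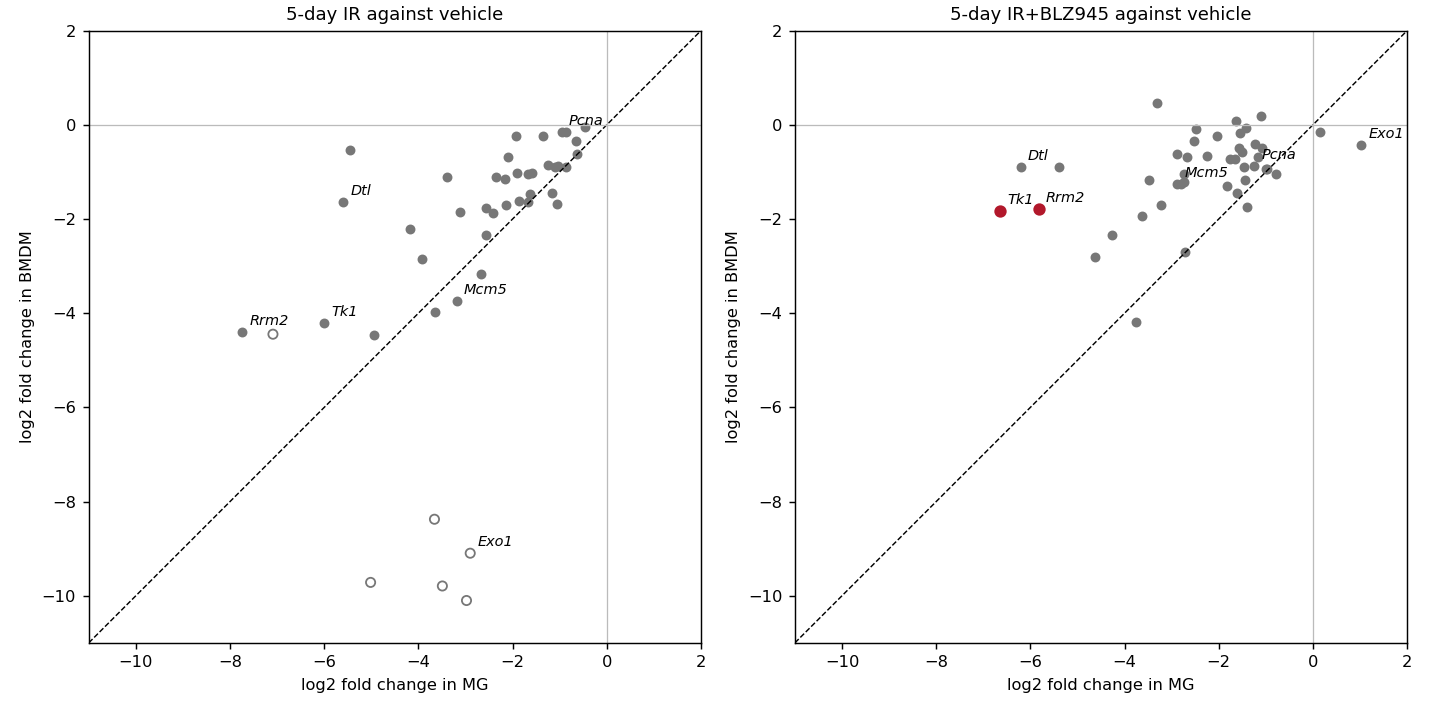
Log2 fold change from vehicle in MG (horizontal) and BMDM (vertical) for each of the 44 genes, after 5 days of IR (left) and of IR+BLZ945 (right), with a dashed line of equal change. Open circles are genes with 0 or 1 count in an IR group, whose fitted values are not folds, and the red points in the right panel are Tk1 and Rrm2, whose changes after IR+BLZ945 differed between the populations (no member's did after IR).

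Of 75 other genes of the pathway (replication factors, nucleotide supply, G1 and S regulators), 7 fell and 1 rose in MG after 5 days of IR, with a median log2 fold change of -0.65, where 1.99% of all genes passed. Cdkn1a, the p53-induced inhibitor p21 that binds CDK2 and PCNA, was the gene that rose (3.82 ± 0.40, adjusted p = 3.25e-05). Ccna2, cyclin A2, fell most (-5.28 ± 0.94, adjusted p = 0.00411). After IR+BLZ945 13 fell and 2 rose, where 13.4% of all genes passed. Those that rose were Cdkn1a by 2.72 ± 0.37 (SE; adjusted p = 0.000271) and Donson by 0.85 ± 0.27. Ccna2 changed by -6.28 ± 0.87 (SE; adjusted p = 0.0003). In BMDM, 3 of 74 fell and 1 rose after IR, and 2 fell and 2 rose after IR+BLZ945. Cdkn1a rose in both (2.43 ± 0.34 and 1.40 ± 0.31, adjusted p = 0.000301 and 0.0375). Rrm2b, the p53-induced reductase subunit, and Ccnd1, cyclin D1, did not pass in these 4 comparisons, with Rrm2b at 0.48 ± 0.71 and Ccnd1 at 0.63 ± 0.67 in MG after IR.

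For 22 mitosis genes, of a later phase of the cycle, 19 fell in MG after 5 days of IR and 17 after IR+BLZ945, with medians of -6.30 and -4.88 beside -2.25 and -1.93 for the 44 replication genes. In BMDM 15 and 2 fell, with medians of -4.96 and -1.70 beside -1.63 and -0.89. The difference between the lists was not tested. Mki67, a marker of cycling cells, fell in MG after IR (-6.90 ± 1.16, adjusted p = 0.00241) and after IR+BLZ945 (-3.29 ± 0.78, adjusted p = 0.0137), and in BMDM it was -2.48 ± 0.98 and -2.03 ± 0.81 without passing.

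Markers of other cells moved with these groups. The summed level of 12 glioma and oligodendrocyte precursor markers was 65.3 to 107 CPM in vehicle MG, 13.2 to 21.96 after 5 days of IR and 18.4 to 63.3 after IR+BLZ945, in the same libraries as the calls above. In BMDM it was 9.67 to 19.3 in vehicle, 2.49 to 20.5 after IR and 9.15 to 12.6 after IR+BLZ945. Summed levels of 6 dendritic cell markers in BMDM were 594 to 950.4 CPM in vehicle, 2304 to 2345 after IR and 2652 to 3568 after IR+BLZ945, where 0 and 1 of the 6 rose. Olig2 and Gpr17 were at 0 in MG after IR and after IR+BLZ945. None of the 12 markers passed in MG after IR, and 1 fell after IR+BLZ945. Of 5 choroid plexus markers all 5 rose in MG after IR+BLZ945, with sums of 22.3 to 1726 CPM against 0.892 to 5.73 in vehicle, and in BMDM 2 of 4 tested rose, with sums of 9.85 to 704 against 0.0651 to 0.748. The Lars2 level was 6.15 to 13.9 in vehicle MG, 5.09 to 6.51 after IR, 6.23 to 8.54 after IR+BLZ945 and 11.6 to 15.2 in recurrence. In BMDM it was 2.99 to 7.76 in vehicle, 1.90 to 4.29 after IR, 5.30 to 8.70 after IR+BLZ945 and 11.4 to 12.98 in recurrence. Malat1 was 8.94 to 10.4 in vehicle MG, 10.9 to 11.5 after IR, 10.8 to 11.2 after IR+BLZ945 and 7.88 to 10.3 in recurrence. Both IR groups of MG thus lay above vehicle in Malat1. The same groups of BMDM had 11.3 to 13.2, 12.7 to 14.1, 11.2 to 12.1 and 7.74 to 10.8. Of the other brain markers, 3 of 5 astrocyte, 4 of 5 neuron and 3 of 4 oligodendrocyte genes tested rose in MG after IR+BLZ945 and 5 of 10 microglia markers fell, while none of these rose or fell in MG after IR. The part of these values in the results was not tested, except that with Malat1 minus Lars2 in the model 6 members fell in MG after IR, 26 after IR+BLZ945 and 5 in BMDM after IR. That term was fitted only in comparisons with vehicle. The calls of recurrence against 5 days were not adjusted for it.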

How the data were processed

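Each of the 23 mice gave 1 MG and 1 BMDM library, made with the Smart-Seq kit, per the labels' protocols. The deposited values are raw counts per gene. CASAVA 1.8, STAR 2.5.0e, HTSeq, DESeq2 and the mm10 build are named in the submitters' processing notes. The annotation, and whether strand was used, are not given in the sources used here.

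The counts were fitted with edgeR 4.0.16 (R 4.3.3, limma 3.58.1): TMM scaling, filterByExpr (minimum count 10, minimum total 15), robust quasi-likelihood fits with 1 coefficient per stage, over 23 MG libraries (14534 genes), 23 BMDM libraries (14568 genes) or all 46 (15901 genes, for comparisons between populations). P-values were adjusted by Benjamini-Hochberg over all genes tested, at 0.05, in 35 comparisons. Levels are log2 CPM with a prior count of 1, scaled over all 46 libraries. Of the 23329 genes, 1535 had no count in any library. The fitting steps were also run on simulated MG counts with known changes, and the outcome is not given here.

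Replicates are separate mice. No pair of libraries within a group agreed within sampling noise (smallest chi-square per degree of freedom 10.7). Both populations come from the same mouse by label, and the deviations of a mouse's 2 libraries from their group means correlated with a median r of 0.15 (-0.09 to 0.44 over 23 mice). The mouse was an alternative block in comparisons between populations.

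In comparisons with vehicle, and between populations in vehicle, values are given for up to 8 passing members of largest fold change and up to 4 others of smallest p. Values per mouse are given for 14 members chosen to cover the roles, and for others that a result turns on. From the other lists, counts are given with Cdkn1a, Rrm2b, Ccnd1, Mki67 and up to 2 more genes. The members and lists were chosen with earlier results of these data known. Alternatives were DESeq2 1.42.0, RLE scaling, no low-count filter, 1 joint fit, a term for Malat1 minus Lars2, a prior count of 0.25, and leaving out single libraries or the 6 doubted ones.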

Additional observations from a re-analysis of the deposited data

Results flagged for a closer look

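Levels of the 14 members described per mouse, and the mean over the 44 genes, were searched for a library far from the others of its group in groups of 4, in 120 group tests, of which chance flags about 1 in 20. In MG after 5 days of BLZ945, mouse 124 stood above the other 3 mice in Mcm2 (7.185, others 5.42 to 5.58), in Ccne1 (3.791, others 2.17 to 2.25) and in the mean over the 44 genes (5.162, others 3.68 to 3.76). In BMDM after 5 days of BLZ945, a member without a count (-3.531) stood apart 3 times: Cdc6 in mouse 122 (others 2.11 to 3.20), and Pola1 (others 3.44 to 4.18) and Ccne2 (others 0.54 to 1.20) in mouse 124. In recurrent IR+BLZ945, mouse 67947 was low in BMDM for Cdc45 (3.724, others 4.27 to 4.36) and Uhrf1 (5.112, others 5.86 to 5.99) and in MG for Pola1 (2.927, others 3.68 to 3.74). In MG of recurrent IR, mouse 68344 was high for E2f1 (5.525, others 4.93 to 5.00).

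Over 264 interaction tests of members (44 genes, 6 treatments), the change from vehicle differed between MG and BMDM for 2 genes, both after 5 days of IR+BLZ945. The MG change minus the BMDM change was -4.05 for Rrm2 and -4.86 for Tk1.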

How the results depend on the processing

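No called gene changed direction under any alternative run. Of the 217 gene calls, DESeq2 kept 217, RLE scaling 209, fits without a low-count filter 197 and fits without the 6 doubted libraries 163. Of those also fitted otherwise, 1 joint fit kept 160 of 190, the Malat1 minus Lars2 term 36 of 49 and the mouse as a replicate block 22 of 27. The block moved no count of calls by over 1.5 times. Counts of members called that moved further are given next, and their cause was not tested.

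With DESeq2 the counts against vehicle were 3 (5-day BLZ945), 30 (5-day IR) and 1 (recurrent IR+BLZ945) in MG, and 3 (BLZ945), 21 (IR), 9 (IR+BLZ945), 1 (recurrent BLZ945), 4 (recurrent IR) and 1 (recurrent IR+BLZ945) in BMDM. DESeq2 called 7 for recurrent against 5-day BLZ945 in MG, 1 for the combination against IR in MG, 9 and 14 for the combination against BLZ945 and IR in BMDM, 8 for MG against BMDM after IR, and 2, 1 and 7 for the interaction after BLZ945, IR and IR+BLZ945. Without the doubted libraries the counts were 3 (5-day BLZ945) and 8 (recurrent against 5-day BLZ945) in MG. In BMDM they were 14 (IR), 13 (IR+BLZ945), 3 (recurrent IR), 1 (recurrent IR+BLZ945), 0 and 28 (recurrent against 5-day BLZ945 and IR+BLZ945) and 11 (combination against BLZ945). They were 3 for MG against BMDM in recurrent IR+BLZ945 and 2, 1 and 4 for the interaction after BLZ945, IR and IR+BLZ945. Without a low-count filter, recurrent against 5-day BLZ945 gave 2 in MG and 1 in BMDM, and the interaction after IR+BLZ945 gave 1. RLE scaling gave 0 for recurrent against 5-day BLZ945 in BMDM and 1 for that interaction. The joint fit gave 1 for 5-day BLZ945 in MG, and 0 for recurrent IR and 0 for recurrent against 5-day BLZ945 in BMDM. The Malat1 minus Lars2 term gave 6 for IR in MG, and 5 for IR, 0 for 5-day BLZ945 and 0 for recurrent IR in BMDM.

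With a prior count of 0.25, the mean level after IR was 1.84 in MG and 1.65 in BMDM, and with RLE scaling it was 1.97 in MG.

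Leaving out 1 library at a time, counts in MG ran from 0 to 3 (BLZ945), 0 to 27 (IR) and 18 to 29 (IR+BLZ945), from 0 to 5, 5 to 25 and 28 to 36 (recurrent against 5-day BLZ945, IR and IR+BLZ945), and from 5 to 22 and 0 to 1 (combination against BLZ945 and IR). In BMDM the same ranges were 0 to 2, 6 to 15 and 0 to 1, then 0 to 5, 15 to 24 and 4 to 11, then 3 to 5 and 4 to 10, with 0 to 1 for recurrent IR. MG against BMDM gave 0 to 1 (vehicle), 2 to 7 (BLZ945), 1 to 4 (IR), 9 to 16 (IR+BLZ945) and 0 to 1 (recurrent IR+BLZ945), and the interaction gave 0 to 2 (IR) and 1 to 2 (IR+BLZ945). Every other comparison stayed at 0 in these fits. Groups of 2 mice then rest on 1 library, assumed to vary like the other groups. Depth limits members with few counts, as in MG of mouse 65971, where 12 of the 44 had none.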
